A study of Drosophila melanogaster with 36 samples.

Results

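Gene expression in the ovaries of young Drosophila melanogaster females was compared with that in their heads. All 12 RNA-1 libraries of these tissues were used, of 36 libraries in the study, and they comprised 6 from ovaries and 6 from heads, with 3 from H females and 3 from M females in each tissue. H females had been reared as larvae on 120% SYA (sugar-yeast-agar) and M females on 100% SYA, all adults were kept on a common diet and allowed to mate at intervals, and RNA-1 females were collected after 10% of their cohort had died. Each library held mRNA from the ovaries or heads of a pool of 11 or 12 females, dissected after freezing and thawing, so a head library carries every tissue of the head capsule and an ovary library carries germ cells together with the somatic cells and muscle around them. Neither the labels nor the methods read here name the strain. The labels call the libraries of a group biological replicates but do not say whether a head pool and an ovary pool with the same number came from the same females.

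An ovary is a bundle of ovarioles, each a row of egg chambers of increasing age. In each chamber nurse cells and an oocyte, all of germline origin, are enclosed by somatic follicle cells. Nurse cells load the oocyte with RNAs and proteins that the embryo will use, and the follicle cells secrete the vitelline membrane and then the chorion, the layers of the eggshell. Yolk proteins are made by the fat body and by follicle cells and are taken up by the oocyte through a receptor. The head holds the compound eyes, the brain with its neurons and glia, sense organs, cuticle, muscle, blood cells and a fat body of its own.

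The deposited values are normalized counts made separately for each tissue, and 11140 genes were listed for both tissues, 171 for ovaries only and 1702 for heads only. Over the 8940 shared genes with a mean of at least 10 in each tissue, the ovary value was on median 1.54-fold the head value, so all ovary values of shared genes were divided by that factor, and a level or difference given for a shared gene below is on this rescaled scale. Differences are on the scale of log2(normalized count + 1), which understates the change of genes near 0. A gene was called higher or lower in ovaries at an adjusted p under 0.05 and a difference of at least 2-fold. Normalized totals were 64388717 to 69203516 in ovaries and 62684280 to 70637997 in heads, and the 10 most abundant genes took 5.12% to 6.34% of the total in ovaries and 16.1% to 22.8% in heads. Levels of 6 libraries are given as the lowest, the median and the highest, in normalized counts.

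Most genes tested differed between the tissues. Of 10494 genes tested, 2605 (24.8%) were called higher in ovaries and 4179 (39.8%) lower, and 3710 were not called. Differences of at least 100-fold were found for 138 of the genes called higher and for 1249 of those called lower. In 6493 of the 6784 called genes, the ovary and head libraries did not overlap. The first principal component separated the tissues and carried 95.5% of the variance. Of 252 genes tested with a mean under 10 in heads, 170 were called higher in ovaries. Of 1673 with a mean under 10 in ovaries, 1607 were called lower. Such genes passed the filter on low values mainly through the other tissue, which favours a call in that direction. For the lists with many such members, the number with a mean of at least 10 in both tissues is given as well. The median difference over all genes tested was -0.29. That median and the split of the calls depend on how the 2 tables are put on one scale. Without rescaling the median was 0.34 and 52.0% of called genes were higher in ovaries, against 38.4% with it. The share was 52.0% when libraries were divided by their totals, 49.6% when the ribosomal protein genes set the scale and 56.3% after quantile normalization. Quantile normalization called 277 of the 6784 genes in the opposite direction, and none of the other scalings did so.

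**Figure D1:**
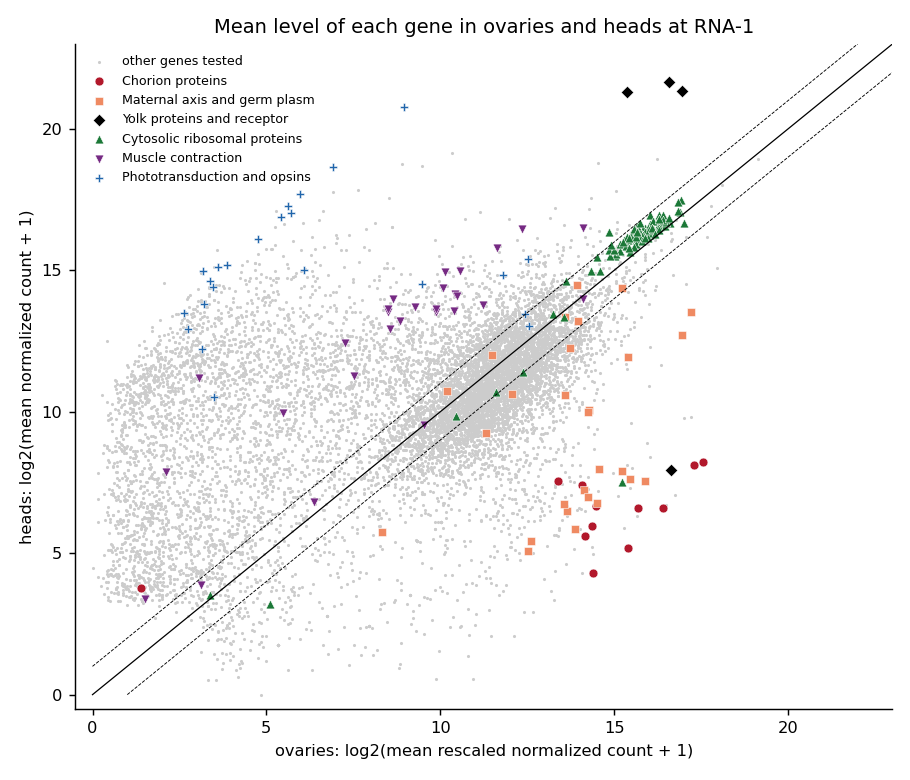
Mean level of each of the 10494 genes tested, with ovaries on the x axis and heads on the y axis, both as log2(mean normalized count + 1). The solid line marks equal levels and the dashed lines a 2-fold difference. Most chorion and maternal genes lie to the lower right, most phototransduction and muscle genes to the upper left, and the 3 yolk protein genes at the top with their receptor gene yl at the lower right.

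The tissue labels were checked against cell type markers. In ovaries 6 of 7 germline markers and 5 of 6 follicle cell markers were called higher, against 24.8% of all genes tested, and none was called lower. The exceptions were grk, which encodes the oocyte's signal to the follicle cells, with 838, 1229 and 1382 in ovaries, against 1263, 1684 and 2022 in heads (log2 difference -0.51, SE 0.09, adjusted p = 1.61e-04), and tj, a transcription factor gene of somatic gonadal cells, with 2007, 4328 and 5573 in ovaries, against 1473, 2031 and 2421 in heads (log2 difference 0.94, SE 0.15, adjusted p = 9.77e-05). The difference of grk was below 2-fold and was 0.11 without rescaling. All 7 photoreceptor, 7 neuron, 4 glia, 5 fat body, 6 muscle and 4 haemocyte markers were called lower in ovaries, against 39.8% of all genes tested. Several of them, among them ChAT, VGlut, repo and NimC1, had ovary medians under 10. Such markers passed the filter through heads, which favours that call. Summed over the 7 photoreceptor markers, ovaries had 593 to 1131 normalized counts and heads 2333170 to 2953172, so the ovary sum was 0.0289% of the head sum, and the 7 differences lay between -11.87 and -11.34. The neuron marker sum in ovaries was 0.179% of that in heads, the glia sum 0.441%, the fat body sum 1.48%, the haemocyte sum 1.86% and the muscle sum 5.87%. In the other direction, the germline marker sum in heads was 2.94% of that in ovaries, most of it from grk and orb, and the follicle cell sum was 0.653%. Among these markers, ChAT was at 0 in 2 ovary libraries and Fbp1 in 1, and no germline or follicle cell marker was at 0 in any head library.

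Eggshell genes rose furthest in ovaries. Of 12 chorion genes tested, 11 were called higher and 1 lower, against 24.8% and 39.8% of all genes tested, with a median difference of 9.50, and all 12 vitelline membrane genes were called higher, with a median of 9.17. Among all named genes whose libraries did not overlap and whose higher mean was at least 100, the 12 with the largest positive differences included ndl, Femcoat, dec and 9 other eggshell genes. The major chorion gene Cp36 had 64428, 173191 and 294247 in ovaries, against 27.9, 106 and 865 in heads (log2 difference 9.99, SE 0.79, adjusted p = 1.05e-07). Cp38 had 75568, 217689.7 and 322042 in ovaries, against 36.2, 106 and 857 in heads (log2 difference 10.12, SE 0.75, adjusted p = 6.20e-08). Cp15, a late chorion gene, had 58804, 76806 and 132952 in ovaries, against 17.2, 117 and 143 in heads (log2 difference 10.07, SE 0.49, adjusted p = 1.03e-09). Every ovary library stood far above every head library for each of them, and the libraries of one tissue also spread widely among themselves. Cp19, Cp16 and Cp18 differed by 10.33, 10.23 and 8.95. The X-linked cluster members Cp7Fa, Cp7Fb and Cp7Fc differed by 5.95, 7.88 and 9.08, and the eggshell-hardening genes yellow-g and yellow-g2 by 6.46 and 9.93. The one member called lower was Pxd, a peroxidase gene, with 0, 0.437 and 6.81 in ovaries, against 3.95, 11.3 and 22.5 in heads and overlapping libraries (log2 difference -2.65, SE 0.47, adjusted p = 1.75e-04).

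Among vitelline membrane genes, Vm26Aa had 46429, 106614 and 171808 in ovaries, against 28.5, 95.2 and 282 in heads (log2 difference 9.95, SE 0.49, adjusted p = 1.17e-09). Vm26Ab had 16497, 39970.4 and 62048 in ovaries, against 20.9, 44.9 and 119.6 in heads (log2 difference 9.49, SE 0.40, adjusted p = 2.63e-10), and Vml differed by 9.61. ndl, which encodes a protease of the eggshell that takes part in setting the embryo's dorsal and ventral sides, had 2943, 6109 and 10336 in ovaries, against 0, 4.01 and 17 in heads (log2 difference 10.45, SE 0.73, adjusted p = 3.15e-08), with heads close to 0. dec, a structural eggshell gene, had 37129.7, 89719 and 153497 in ovaries, against 25.5, 87.7 and 225 in heads (log2 difference 10.07, SE 0.52, adjusted p = 1.86e-09). The ovary libraries of M females were the lower ones: the mean log2 level of the 12 chorion genes was 14.24 to 14.86 in H ovaries and 12.71 to 13.71 in M ovaries, against 4.60 to 7.19 in H heads and 4.50 to 6.48 in M heads. At RNA-2, the later time point, the median difference between ovaries and heads was 3.78 for the chorion list and 6.01 for the vitelline membrane list, and the change with age itself was not tested here.

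The yolk genes split by role. The 3 yolk protein genes were called lower in ovaries than in heads and the receptor gene was called higher. Yp1 had 44137, 98814 and 153173 in ovaries, against 2373589, 3353793 and 4033923 in heads (log2 difference -5.16, SE 0.17, adjusted p = 2.34e-11). Yp2 had 60951, 125888 and 195628 in ovaries, against 1877293, 2669392 and 3443865 in heads (log2 difference -4.45, SE 0.16, adjusted p = 5.91e-11). Yp3 had 20612, 42704 and 63258 in ovaries, against 1758476, 2646546 and 3529198 in heads (log2 difference -6.01, SE 0.17, adjusted p = 6.07e-12). Every head library stood above every ovary library for each gene, and in heads the 3 means were higher than that of any other gene tested. The receptor gene yl had 75805, 106833 and 120554 in ovaries, against 68.2, 159 and 535 in heads (log2 difference 9.08, SE 0.44, adjusted p = 8.64e-10), so every ovary library stood above every head library by at least 100-fold.

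**Figure D2:**
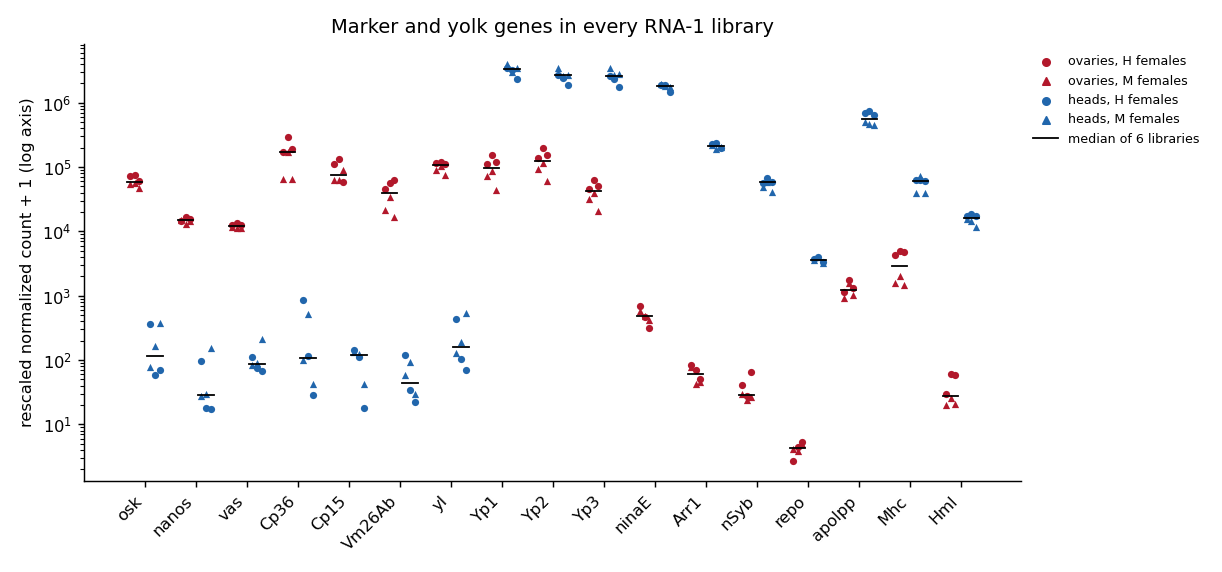
Levels of 17 marker and yolk genes in every RNA-1 library, as rescaled normalized count + 1 on a log axis, with the 6 ovary libraries (left of each pair) and the 6 head libraries (right), circles for H females and triangles for M females, and bars for the median of the 6. The germline, eggshell and receptor genes on the left are higher in all ovary libraries, and the 3 Yp genes and all genes to their right are higher in all head libraries.

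Maternal genes, which pattern the embryo and assemble its germ plasm, were higher in ovaries in 22 of 28 cases and lower in none. The shares of all genes tested were 24.8% and 39.8%, and the list median was 4.24. osk, the organizer of germ plasm, had 47884, 59049.7 and 74257 in ovaries, against 57.1, 122 and 371 in heads (log2 difference 8.76, SE 0.46, adjusted p = 1.97e-09). nanos, which encodes a translational repressor of the posterior pole, had 13032, 15005 and 16790.1 in ovaries, against 16.2, 27.5 and 155 in heads (log2 difference 8.56, SE 0.49, adjusted p = 5.16e-09). BicC, a regulator of maternal RNAs, had 42963, 44557 and 47263 in ovaries, against 48.5, 102 and 599 in heads (log2 difference 8.42, SE 0.51, adjusted p = 7.58e-09). The ovary libraries of these genes lay close together while heads spread over several-fold. otu, a gene needed for germ cell differentiation, differed by 8.23.

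The piRNA pathway silences transposons with small RNAs in the germline and in follicle cells. Of its 31 genes tested, 27 were called higher in ovaries and none lower, against 24.8% and 39.8% of all genes tested, with a median of 4.98. piwi, the nuclear effector, had 9609, 10751 and 12521 in ovaries, against 26.9, 51.8 and 105 in heads (log2 difference 7.66, SE 0.30, adjusted p = 1.08e-10). The germline helicase gene vas had 11119, 12176 and 13379 in ovaries, against 67.2, 86.9 and 209 in heads (log2 difference 6.94, SE 0.21, adjusted p = 1.07e-11). BoYb and moon, a Tudor-domain gene and a transcription factor gene of piRNA clusters, differed by 7.43 and 6.51. Of 24 meiosis genes, 20 were called higher and 1 lower (cona, -1.02), against the same shares of all genes tested, with a median of 3.66. Of the 17 with a mean of at least 10 in both tissues 13 were higher and 1 lower. mtrm, an inhibitor of Polo kinase in the oocyte, had 16902, 17749 and 19909 in ovaries, against 26.3, 61.1 and 240.1 in heads (log2 difference 8.10, SE 0.41, adjusted p = 1.42e-09). sub, a kinesin gene of the meiotic spindle, differed by 7.25, c(2)M, which encodes an axis component of meiotic chromosomes, by 7.14, and solo, a cohesion gene, by 6.18.

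DNA replication and cell cycle genes were higher in ovaries as well. Follicle and nurse cells of the ovary divide or re-replicate their DNA, whereas most cells of the adult head no longer divide. In ovaries 30 of 31 DNA replication genes were called higher and none lower (Psf2 was not called), with a median of 3.96. Of 35 cell cycle and egg activation genes 33 were called higher and none lower (Cks85A and Wee1 were not called), with a median of 5.70. Over all genes tested 24.8% were called higher and 39.8% lower. Mcm5, a subunit of the replicative helicase, had 13168, 14627 and 15923 in ovaries, against 109.7, 158 and 275 in heads (log2 difference 6.40, SE 0.22, adjusted p = 3.41e-11). Mcm10, Cdc6 and Orc2, which act in loading or activating that helicase, differed by 7.01, 6.66 and 6.25. No head library overlapped an ovary library for any of these. CycB, a mitotic cyclin gene, had 142513, 149978 and 164302 in ovaries, against 422, 741 and 1657 in heads (log2 difference 7.56, SE 0.28, adjusted p = 8.13e-11). polo, a mitotic kinase gene, had 30287, 32057 and 33339.9 in ovaries, against 70.7, 203 and 426 in heads (log2 difference 7.47, SE 0.44, adjusted p = 6.26e-09). dhd, the thioredoxin gene of the oocyte, had 108864, 131880.1 and 149004 in ovaries, against 165, 449 and 2545 in heads (log2 difference 7.94, SE 0.57, adjusted p = 4.54e-08). Head libraries spread more than 10-fold for dhd while ovary libraries lay close together. plu, a gene of the kinase complex that acts at egg activation, differed by 7.86 with a lowest head value of 0.

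Genes that regulate follicle cells were split. Of 25 tested, 7 were called higher and 12 lower, shares close to the 24.8% and 39.8% of all genes tested, with a median of -0.89. The relaxin-like hormone gene Ilp8 had 1798, 3575 and 5019.8 in ovaries, against 26.4, 58.3 and 79.7 in heads (log2 difference 5.92, SE 0.23, adjusted p = 9.22e-11). Cad74A, a cadherin gene of late follicle cells, had 1622, 3903 and 8236 in ovaries, against 201, 318 and 437 in heads (log2 difference 3.58, SE 0.23, adjusted p = 1.40e-08), and pip, which encodes the sulfotransferase of ventral follicle cells, differed by 3.00. The nuclear receptor gene ftz-f1 differed by 1.25. Lower in ovaries were rho (-5.85), an activator of epidermal growth factor signalling, the ligand gene hh (-5.70), the metalloproteinase gene Mmp2 (-3.25) and the receptor gene Pvr (-2.83). In these bulk libraries fewer cells of a type and less RNA per cell cannot be told apart.

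Among named genes, those of vision showed the largest differences, all lower in ovaries. Of 23 phototransduction genes tested, 21 were called lower in ovaries and none higher, against 39.8% and 24.8% of all genes tested, with a median of -11.00. All 21 of 21 genes of eye structure, lens and pigment were called lower, with a median of -9.11. Of these, 17 phototransduction and 11 eye structure genes had a mean of at least 10 in both tissues, and 15 and 11 of them were called lower. Of the 12 named genes with the largest negative differences, 11 act in photoreceptors, pigment cells or lens: the opsin genes ninaE and Rh6, the arrestin genes Arr1 and Arr2, the visual G protein subunit genes Gbeta76C and Ggamma30A, the photoreceptor myosin gene ninaC, inaF-B, which acts with the light-gated channel, the lens gene retinin and the genes Pdh and Cpn. ninaE, the major rhodopsin of the outer photoreceptors, had 317, 475 and 696 in ovaries, against 1448097, 1858311 and 1945975 in heads (log2 difference -11.87, SE 0.16, adjusted p = 5.45e-14). Arr2 had 91.9, 114 and 159 in ovaries, against 346169.9, 429401 and 450530.4 in heads (log2 difference -11.75, SE 0.14, adjusted p = 2.51e-14). Pdh, a dehydrogenase gene of retinal pigment cells, had 19.6, 34.3 and 59.2 in ovaries, against 102673, 148040.0 and 164299 in heads (log2 difference -11.88, SE 0.19, adjusted p = 1.16e-13). Each head library exceeded each ovary library by more than 1000-fold for these genes. The other opsin genes differed by -8.84 (Rh2), -11.34 (Rh3), -11.39 (Rh4), -10.67 (Rh5), -11.87 (Rh6) and -7.19 (Rh7). Rh2, the ocellar opsin gene, varied most between heads, at 1342 to 8784.

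Neuronal genes stood far below their head levels in ovaries, with few exceptions. Of the synaptic vesicle and active zone genes 19 of 23 were called lower in ovaries (median -8.00), of ion channel and receptor genes 39 of 40, all but nAChRalpha4 (median -8.14), of transmitter synthesis and transport genes 20 of 20 (median -8.79) and of neuropeptide genes 31 of 31 (median -9.53), and none was called higher. Over all genes tested 39.8% were called lower. Many members of these lists passed the filter mainly through heads, which favours a call of lower in ovaries. Members with a mean of at least 10 in both tissues numbered 21 in the synaptic, 22 in the channel, 10 in the transmitter and 5 in the neuropeptide list, of which 17, 21, 10 and 5 were called lower. nSyb, the synaptic vesicle fusion protein, had 23.2, 27.4 and 63.6 in ovaries, against 41113, 57839 and 67104 in heads (log2 difference -10.67, SE 0.18, adjusted p = 1.58e-13). cpx, the complexin that clamps fusion, had 28.3, 34.9 and 47.1 in ovaries, against 41696, 64681 and 76383 in heads (log2 difference -10.64, SE 0.13, adjusted p = 2.63e-14). The glutamate transporter VGlut had 1.41, 6.13 and 8.59 in ovaries, against 6086, 7652 and 8949.5 in heads (log2 difference -10.28, SE 0.30, adjusted p = 1.01e-11). Ovary libraries thus held under 100 of each, and heads far more. VAChT, ChT and VGAT, transporters for acetylcholine, choline and inhibitory transmitters, differed by -10.79, -10.18 and -10.08. The nicotinic receptor gene nAChRalpha6 had 0.676, 1.75 and 3.17 in ovaries, against 2511, 5366 and 6183 in heads, and Rdl, a receptor for inhibitory transmission, had 2.25, 2.87 and 18.9 in ovaries, against 3829.8, 8498 and 10265 in heads. The 4 synaptic genes not called were Synj, Csp, Syx1A and Liprin-alpha. Members named as exceptions to a list were picked after their values were seen.

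Among neuropeptide genes Ilp2, an insulin-like peptide of brain neurosecretory cells, had 0, 1.12 and 4.86 in ovaries, against 4783, 5347 and 7720.0 in heads (log2 difference -11.25, SE 0.36, adjusted p = 2.03e-11). Nplp3 had 0, 3.02 and 4.84 in ovaries, against 5023, 9608 and 13920.0 in heads (log2 difference -11.44, SE 0.41, adjusted p = 5.17e-11), and Ms and Dh31 differed by -10.74 and -10.67. Glial genes were called lower in ovaries in 14 of 17 cases and higher in none (median -6.69), against 39.8% and 24.8% of all genes tested. Of the 14 with a mean of at least 10 in both tissues, 11 were called lower. repo, the glial transcription factor gene, had 1.67, 3.35 and 4.32 in ovaries, against 3182, 3611 and 3973 in heads (log2 difference -9.76, SE 0.18, adjusted p = 3.43e-13). Gs2, a glutamine synthetase gene, had 186, 276 and 394 in ovaries, against 89013, 103283 and 120732 in heads (log2 difference -8.59, SE 0.10, adjusted p = 1.95e-14). Eaat2 and alrm, a transporter and an astrocyte gene, differed by -11.03 and -9.62. Of 12 clock genes 7 were called lower and 2 higher (median -2.86), against 39.8% and 24.8% of all genes tested. The clock neuron peptide gene Pdf (-10.17), the blue-light receptor gene cry (-5.29) and the transcription factor genes Clk (-4.23) and vri (-4.00) were lower, and the kinase gene dco (1.87) and nocte (1.60) were higher.

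**Figure D3:**
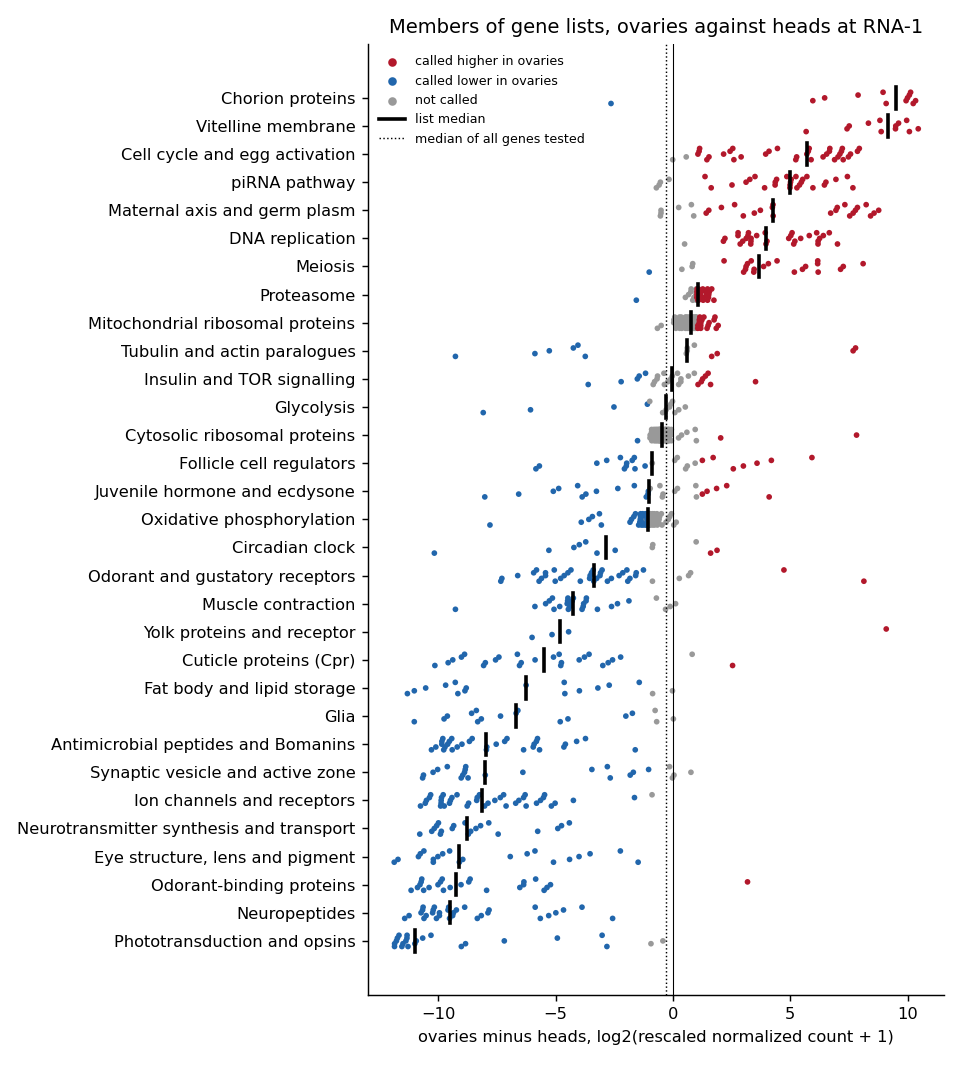
Differences between ovaries and heads for the members of 31 gene lists, on the log2(normalized count + 1) scale, with one point per gene, red for called higher in ovaries, blue for called lower and grey for not called. Black ticks mark list medians and the dotted line the median of all genes tested, -0.29. Eggshell lists lie at the top right, lists of eye, neuron and chemosensory genes at the bottom left, and translation, proteasome and respiration lists near the line of equality.

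Chemosensory and cuticle genes were mostly head genes, with exceptions. Of 24 odorant-binding protein genes tested 23 were called lower in ovaries (median -9.27), against 39.8% of all genes tested. Only 9 had a mean of at least 10 in both tissues, of which 8 were lower. Obp56d had 62.5, 129.9 and 151 in ovaries, against 167916, 227124 and 283218 in heads (log2 difference -10.89, SE 0.19, adjusted p = 2.32e-13), and Obp56e, Obp19d and Obp49a differed by -11.16, -10.74 and -10.79. The member called higher was Obp19c, with 1932, 4202 and 11675 in ovaries, against 328, 513 and 725 in heads (log2 difference 3.17, SE 0.27, adjusted p = 2.52e-07). Of 41 genes of the odorant, gustatory and ionotropic receptor families 35 were called lower and 2 higher (median -3.38), out of 170 family members listed for heads and 56 for ovaries. Only 9 of the 41 had a mean of at least 10 in both tissues, of which 5 were called lower and none higher, and the others had a lower mean in one tissue. Among the genes called lower, Ir75a, Ir75b and Ir76b, receptor genes of the antenna, differed by -7.34, -7.30 and -6.62. The ionotropic receptor family member Ir7c was higher in ovaries, with 871, 1976 and 3735 in ovaries, against 2.57, 5.72 and 10.8 in heads (log2 difference 8.13, SE 0.28, adjusted p = 4.25e-11). The other was its relative Ir7b, with 14.5, 25.2 and 46.6 in ovaries, against 0, 0 and 0 in heads, named after its values were seen. Of 26 Cpr cuticle protein genes 24 were lower and 1, Cpr30B, higher (median -5.49), with 6 at a mean of at least 10 in both tissues, of which 5 were lower. Among the lower ones were Cpr65Au (-10.15) and Cpr67B (-9.39).

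Fat body, immune and muscle genes were lower in ovaries as well. Of 17 fat body and lipid storage genes 15 were called lower (median -6.26), of 31 antimicrobial peptide and Bomanin genes 31 (median -7.95) and of 28 muscle genes 24, all but Tm1, TpnC4, TpnC47D and TpnC73F (median -4.27), and none was called higher. With a mean of at least 10 in both tissues were 14, 18 and 24 of them, of which 12, 18 and 21 were called lower. Over all genes tested 39.8% were called lower. fit, a satiety factor gene of the head fat body in females, had 23.7, 37.8 and 50.3 in ovaries, against 72611, 96691 and 113371 in heads (log2 difference -11.32, SE 0.13, adjusted p = 2.22e-14). apolpp, the lipid carrier of the blood, had 930.3, 1249 and 1766 in ovaries, against 445427, 569538 and 735672 in heads (log2 difference -8.81, SE 0.14, adjusted p = 1.11e-13). The storage protein genes Fbp1 and Lsp2 varied widely between heads, at 7912 to 66547 and 2167 to 17830. Of the antimicrobial peptide genes, Mtk had 2.85, 10.6 and 21.1 in ovaries, against 8057, 10227 and 11388 in heads (log2 difference -9.85, SE 0.36, adjusted p = 5.66e-11), and Drsl5, BomS4 and BomS1 differed by -10.30, -10.11 and -9.85. Drs, which encodes the antifungal peptide Drosomycin, had 6.96, 22.01 and 1654 in ovaries, against 1954, 2379 and 8429.7 in heads, and its highest ovary value came from H replicate 4 alone, the next being 65.8, a gap noticed after the data were seen.

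Muscle is part of both tissues, since each ovary is wrapped in a contractile sheath. Mhc, the myosin heavy chain gene, had 1469.8, 3139 and 4997 in ovaries, against 39636, 61399.8 and 71838 in heads (log2 difference -4.30, SE 0.14, adjusted p = 2.92e-11). Mlp84B, a Z-disc gene, had 216.8, 381 and 620.2 in ovaries, against 12841, 16089 and 20288 in heads (log2 difference -5.43, SE 0.11, adjusted p = 4.23e-13), and Act88F, the actin of indirect flight muscle, had 0.655, 2.67 and 7 in ovaries, against 138, 244 and 320.2 in heads (log2 difference -5.89, SE 0.30, adjusted p = 1.35e-09). No ovary library overlapped a head library for these genes, and the share of the head level left in ovaries was larger for the muscle markers, at 5.87% of their sum, than for the neuron markers, at 0.179%.

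Haemocyte genes were called lower in 11 of 12 cases, all but crq (median -8.46), and in 5 of the 6 with a mean of at least 10 in both tissues, with NimC1, a phagocytosis receptor gene, at 3.01, 5.66 and 11.8 in ovaries, against 4052, 5322 and 6335 in heads (log2 difference -9.58, SE 0.23, adjusted p = 2.18e-12). Of 32 digestive enzyme genes and Npc2 genes of the gut list 24 were lower and 1, Mal-A3, higher (median -1.63), against 39.8% and 24.8% of all genes tested. Of the 22 with a mean of at least 10 in both tissues, 18 were lower and 0 higher. Npc2g and Npc2b differed by -9.34 and -8.12. Of a list for the spermatheca and male tract only betaTub85D and lz passed the filter, both called lower. Neither had a mean of at least 10 in both tissues, and passing the filter through heads favours that call. The mean log2 level of the gut list in ovaries was 5.83 in M replicate 3, against 3.84 to 4.41 in the other 5 libraries.

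Genes for protein synthesis and breakdown had list medians between -0.47 and 1.07, and for the cytosolic ribosomal proteins the sign of the median depended on the scale. Of 88 cytosolic ribosomal protein genes 2 were called higher and 1 lower, with a median of -0.47, which became 0.15 without rescaling. Mitochondrial ribosomal protein genes were called higher in 17 of 72 cases, a share close to the 24.8% of all genes tested, and lower in none, against 39.8%, with a median of 0.76 (1.38 without rescaling and 0.48 when genes with a mean of at least 100 set the scale). mRpL39 had 3252, 3659 and 3878 in ovaries, against 902, 957 and 1015 in heads (log2 difference 1.92, SE 0.04, adjusted p = 1.12e-12), and mRpS10, mRpS18A and mRpL12 differed by 1.84, 1.78 and 1.75. Proteasome genes were called higher in 25 of 36 cases and lower in 1, Prosbeta2R2, with a median of 1.07 (0.80 to 1.70 under the same 2 scales). Rpn2, a scaffold subunit gene of the regulatory particle, had 23392, 24658 and 26576 in ovaries, against 7607, 8363 and 10001 in heads (log2 difference 1.54, SE 0.06, adjusted p = 2.08e-10). Rpn5 differed by 1.52, and Rpt3R, a diverged copy of an ATPase subunit gene, by 1.74.

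Respiratory chain genes leaned to the head. Of 72 oxidative phosphorylation genes 42 were called lower in ovaries and none higher, against 39.8% and 24.8% of all genes tested. Of the 65 with a mean of at least 10 in both tissues, 36 were called lower. The list median was -1.06, which was -0.43 without rescaling and -1.33 on the scale of genes with a mean of at least 100. ND-51, a subunit gene of complex I, had 7579, 7857 and 8460.2 in ovaries, against 22818, 28514 and 32412 in heads (log2 difference -1.84, SE 0.06, adjusted p = 1.87e-11). SdhB and SdhC, subunit genes of complex II, differed by -1.67 and -1.77, and COX7AL2, a copy of a complex IV subunit gene, had 1.81, 3.07 and 7.18 in ovaries, against 679, 1017 and 1145 in heads (log2 difference -7.80, SE 0.29, adjusted p = 7.22e-11). Of 13 glycolysis genes 4 were called lower and none higher, against 39.8% and 24.8% of all genes tested. Their median of -0.30 turned to 0.33 without rescaling. The 4 called lower were the hexokinase genes Hex-C (-8.09) and Hex-A (-1.10), Ldh (-6.08), which encodes lactate dehydrogenase, and the aldolase gene Ald1 (-2.52).

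Some copies of the same protein family differed in opposite directions. RpS5b, one of a pair of genes for the same ribosomal protein, had 29710.1, 39146 and 45122 in ovaries, against 88.3, 193 and 256 in heads (log2 difference 7.82, SE 0.23, adjusted p = 8.80e-12). Its partner RpS5a had 24562, 29862 and 33502 in ovaries, against 71890.3, 78480.1 and 109122 in heads (log2 difference -1.51, SE 0.09, adjusted p = 5.90e-09), so the pair moved in opposite directions and neither gene's libraries overlapped. RpS19b was low in both tissues, with 19.5, 36.5 and 49.3 in ovaries, against 3.22, 6.28 and 15.2 in heads (log2 difference 2.03, SE 0.39, adjusted p = 3.50e-04). Every other ribosomal protein copy tested stayed within 2-fold, between -0.90 for RpL37-1 and 0.99 for RpL7-like. Of 14 tubulin and actin genes 4 were called higher and 6 lower (median 0.58), shares close to the 24.8% and 39.8% of all genes tested. The maternal gene alphaTub67C had 37195, 38294 and 39699 in ovaries, against 90.7, 167 and 564 in heads (log2 difference 7.67, SE 0.39, adjusted p = 1.56e-09). The maternal gene gammaTub37C had 5468, 5794 and 6585 in ovaries, against 6.3, 32.9 and 54.7 in heads (log2 difference 7.78, SE 0.43, adjusted p = 3.06e-09). In both, every ovary library stood above every head library. betaTub56D and Act42A were also higher (1.88 and 1.64), although 1 head library of Act42A, from H replicate 3, overlapped the ovaries. Lower were the muscle actin genes Act57B (-4.25), Act79B (-9.28), Act87E (-5.28) and Act88F, and betaTub97EF (-3.74) and betaTub85D (-4.05). The widely used genes Act5C, alphaTub84B, alphaTub84D and gammaTub23C differed by 0.91, 0.60, 0.56 and 0.61, below 2-fold. Reads of near-identical copies can be split between them by the counting, so values of single copies are uncertain to that extent.

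**Figure D4:**
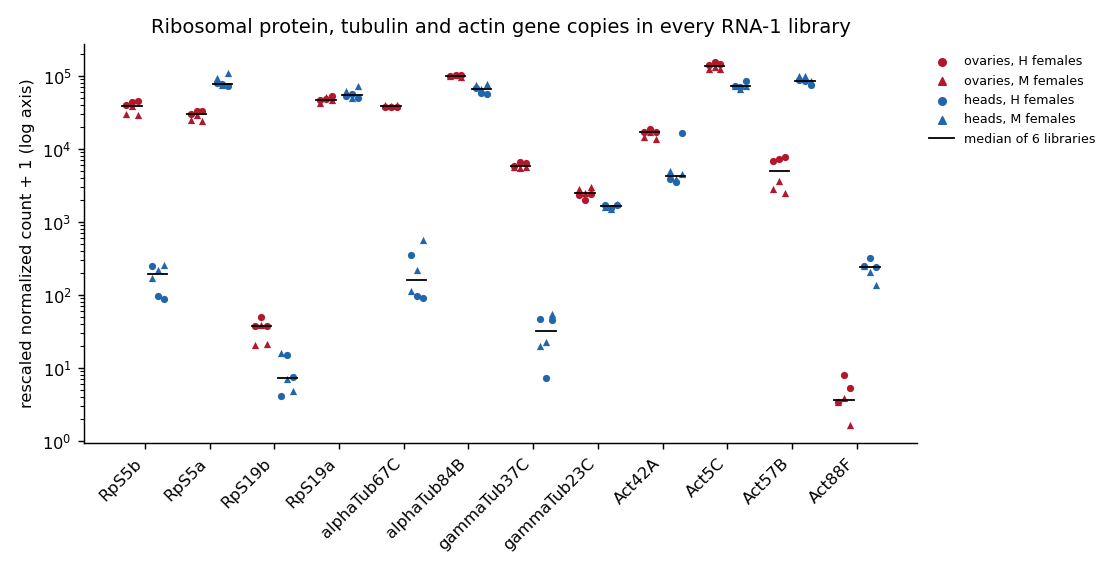
Levels of 12 ribosomal protein, tubulin and actin genes in every RNA-1 library, as rescaled normalized count + 1 on a log axis, with ovaries left and heads right of each pair, circles for H and triangles for M females, and bars for the median of 6 libraries. RpS5b, alphaTub67C and gammaTub37C are higher in every ovary library, RpS5a, Act57B and Act88F in every head library, and 1 head library of Act42A lies among the ovaries.

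Nutrient and hormone signalling genes were expressed in both tissues with members on either side. Of 27 insulin and TOR genes 7 were called higher and 5 lower, against 24.8% and 39.8% of all genes tested. Their median of -0.03 turned to 0.59 without rescaling. slif, an amino acid transporter gene upstream of TOR, had 10829, 11579 and 12447 in ovaries, against 877, 1040.0 and 1183 in heads (log2 difference 3.51, SE 0.07, adjusted p = 8.08e-13). Thor, which encodes a translation inhibitor that TOR inactivates, had 1516, 1743 and 2491 in ovaries, against 17857, 22327 and 30153 in heads (log2 difference -3.62, SE 0.09, adjusted p = 2.85e-12). No library of one tissue overlapped the other for either gene. Tsc1, Lst8 and Myc were also higher (1.60, 1.38 and 1.49), and crc, chico, ImpL2 and Sdr, the last a secreted decoy of the insulin receptor, were lower (-2.21 for crc, -1.52 for chico and -1.44 for Sdr). Myc, a growth regulator, varied widely between heads, at 1493 to 7643.

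Of 26 juvenile hormone and ecdysone genes 5 were called higher and 13 lower (median -1.01), against 24.8% and 39.8% of all genes tested. The higher ones were dib, ftz-f1, Hr4, phtm and sad. The ecdysone synthesis genes phtm and sad were low in both tissues, with 93.3, 204 and 273 in ovaries, against 32.9, 49.3 and 74.9 in heads for phtm (log2 difference 1.85, SE 0.18, adjusted p = 7.33e-07) and a difference of 1.45 for sad, whose libraries overlapped. The nuclear receptor gene Hr4 had 747, 1105 and 1381 in ovaries, against 185, 210.0 and 298 in heads (log2 difference 2.29, SE 0.12, adjusted p = 2.60e-09). Neither phtm nor Hr4 had overlapping libraries. jhamt, which encodes the enzyme of the last step of juvenile hormone synthesis, had 0, 0.359 and 1.18 in ovaries, against 92, 127 and 193 in heads (log2 difference -6.58, SE 0.29, adjusted p = 4.03e-10). Jheh1, a juvenile hormone epoxide hydrolase gene, had 474, 529 and 618 in ovaries, against 12396, 18254 and 31265 in heads (log2 difference -5.10, SE 0.16, adjusted p = 1.73e-11). The nuclear receptor gene Hr38 (-8.02) and the ecdysone-induced gene Eip93F (-4.88) were also lower in ovaries.

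The calls were also counted by chromosome, as a description. Of 80 genes of chromosome 4 tested, 4 (5.0%) were called higher and 46 (57.5%) lower in ovaries. Of 1745 X-linked genes 28.5% were called higher and 35.1% lower, and on each of the 4 large autosome arms 22.6% to 26.9% were called higher and 39.3% to 42.6% lower. The longest annotated transcript had a median length of 2044 bases among genes called higher, 2098 bases among genes called lower and 1893 bases among genes not called.

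The calls were set beside the same comparison at RNA-2, when 60% of the cohort had died, in other libraries. At RNA-2, 2540 of 10532 genes tested were called higher in ovaries and 4433 lower. Of the genes called higher and lower at RNA-1, 2585 and 4134 were tested there. Of the 2605 genes called higher in ovaries at RNA-1, 2289 (87.9%) were called higher at RNA-2 and 9 lower. Of the 4179 called lower, 4006 (95.9%) were called lower at RNA-2 and 1 higher. Those that turned, named after their values were seen, included CG8303, with a log2 difference of 1.39 at RNA-1 and -2.30 at RNA-2, CG12716, with 3.22 and -2.84, and CG4842, with -1.21 and 1.30.

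Genes listed for one tissue only have no value in the other. The 171 genes listed for ovaries only had low values in the ovary table, with a median of their RNA-1 means of 2.39, and 31 had a mean of at least 10. Of these 171, 153 are annotated as protein-coding and 31 carry histone gene symbols, several of them copies with identical values. The highest was CG6508, with 482, 836 and 1724 normalized counts as the lowest, median and highest of 6 ovary libraries, named after its values were seen. Hesr had 95.4, 343 and 473, Flad2 21.98, 44.2 and 94.4 and pre-mod(mdg4)-J 28.7, 47.9 and 60.5. The genes ocn, S-Lap8 and S-Lap4, known from the testis and sperm, were listed with 38.5, 31.9 and 30.8 in M replicate 2 and 0 in the other 5 ovary libraries. Rpn12R, Eo, Ir56c and Tssk, which complete the 10 named genes with the highest means, averaged 11.9, 8.80, 5.48 and 5.10.

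The 1702 genes listed for heads only had a median of their RNA-1 means of 4.19, and 580 had a mean of at least 10 and 205 of at least 100. They held 46 odorant, 38 gustatory and 30 ionotropic receptor genes, 20 odorant-binding protein genes and 32 Cpr genes by symbol. Sidpn had 2518, 2731 and 3276 normalized counts in heads. The glutamate receptor gene GluRIA had 1320.5, 1662 and 1890.3. The histamine receptor gene ort, through which lamina neurons respond to photoreceptors, had 1363, 1547 and 1803. These genes varied little between heads. Others with like values in all heads were sxe2, with a mean of 1969, witty with 1518, DIP-gamma with 1370.2 and the dopamine receptor gene Dop1R2 with 1215. phu varied more, with 245, 583 and 5667. Diedel and Toll-4 owed their means to 1 library, the head library of H replicate 3. Diedel, an immune-modulating cytokine gene, had 33321.5 there, against 60.5 to 373 in the other 5, and Toll-4, of the Toll receptor family, had 7762 there, against 14.9 to 44.8.

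That library stood apart in other genes too. In it 45 genes, of which 19 were listed for both tissues, had at least 100 normalized counts and at least 10 times the value of every other head library, whereas the other 5 head libraries had 0 to 4 such genes each and ovary libraries 0 to 4. Of the 45, 14 were among the genes tested, and 12 of these were called lower in ovaries, against 39.8% of all genes tested. Picking genes by a high value in a head library favours that call. The 45 included the humoral stress peptide genes TotA, with 289622 in H replicate 3 and 3590.3 to 9640.2 in the other heads, and TotM, with 164652 and 1598 to 7029.7, and also lectin-24A and Tep1. These genes were named after their values were seen. Without that library 2607 genes were called higher in ovaries and 4152 lower.

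Few of the differences between ovaries and heads passed the test for a dependence on larval diet. With 3 libraries per group, a small number passing does not show that diet had little effect. In the limma fit 1993 genes had an unadjusted p under 0.05. The difference between the tissues was higher in H than in M females for 73 genes (0.696% of those tested) and lower for 6 (0.0572%) at an adjusted p under 0.05. This comparison is the ovary minus head difference in H females minus that in M females, so a single factor between the tables largely cancels. The other single factors tried, including none, gave 73 to 86 genes higher and 6 lower. Scaling each library by its total gave 37 and 7, and quantile normalization gave 20 and 4. Of the 73 genes 67 were among those called lower in ovaries, against 39.8% of all genes tested. l(2)efl, a small heat shock protein gene of muscle, had 418, 409 and 450.2 in H ovaries and 215, 253 and 179 in M ovaries, against 3823, 3719.6 and 3202 in H heads and 4591, 5096 and 5535 in M heads (log2 1.49, SE 0.18, adjusted p = 0.00668). Neurochondrin had 621, 738 and 712 in H ovaries and 289, 325 and 269.6 in M ovaries, against 2451, 2317 and 2237 in H heads and 2441, 3195 and 2827 in M heads (log2 1.49, SE 0.16, adjusted p = 0.00668). In both genes every H ovary stood above every M ovary, while the H heads stood below the M heads with the exception of 1 H library for Neurochondrin. RhoL, a GTPase gene of blood cells and follicle cells, CG10126 and CG34325 followed (log2 1.42, SE 0.17, adjusted p = 0.00668 for RhoL).

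Of the 28 muscle genes 7 were called higher in H in this comparison and none lower (median of all 28, 0.99): Act57B, Mlc1, Mlc2, Mlp60A, Mlp84B, up and wupA. Act57B had 6862, 7338 and 7763 in H ovaries and 2875, 3696 and 2509 in M ovaries, against 87161, 84893 and 76389 in H heads and 100653, 101515 and 85756 in M heads (log2 1.50, SE 0.18, adjusted p = 0.00668). The mean log2 level of the muscle list was 8.71 to 9.11 in H ovaries and 7.99 to 8.53 in M ovaries, against 12.16 to 12.42 in H heads and 12.33 to 12.56 in M heads. At RNA-2 none of the 28 passed the test (median 0.31). Eggshell levels were also higher in H than in M ovaries, as given above, and no chorion or vitelline membrane gene passed the test (median differences 1.13 and 1.15). Other marker sums were higher in H than in M ovaries without overlap as well: 623 to 1011 against 171 to 358 for haemocytes, 12514 to 18750 against 6286 to 10602 for the fat body, 610.0 to 654 against 381 to 458 for glia, 450976 to 666711 against 217867 to 367393 for follicle cells, and 119119 to 138531 against 97820 to 110787 for the germline. The neuron and photoreceptor sums overlapped between H and M ovaries. The part of any of these sums in the muscle difference was not tested. RNA-1 was set by the share of deaths within each diet group, not by age in days. H and M females may thus have differed in age, and diet and age in days cannot be told apart here.

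Lower in H than in M were CROT, a carnitine acyltransferase gene, with 3974, 4262 and 3932 in H ovaries and 4649.7, 4117 and 4685 in M ovaries, against 11598, 10913 and 10481 in H heads and 7291, 6532 and 6358 in M heads (log2 -0.85, SE 0.12, adjusted p = 0.00905), and CG15011 and MFS18. The pair CG31775 and CG42586, which had identical values in every library and so cannot be told apart by these counts, had 3775, 2873 and 2357 in H heads and 399.8, 383 and 427 in M heads, and under 10 in each ovary library (log2 -2.22, SE 0.38, adjusted p = 0.0303). Their difference was thus set by the heads.

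**Figure D5:**
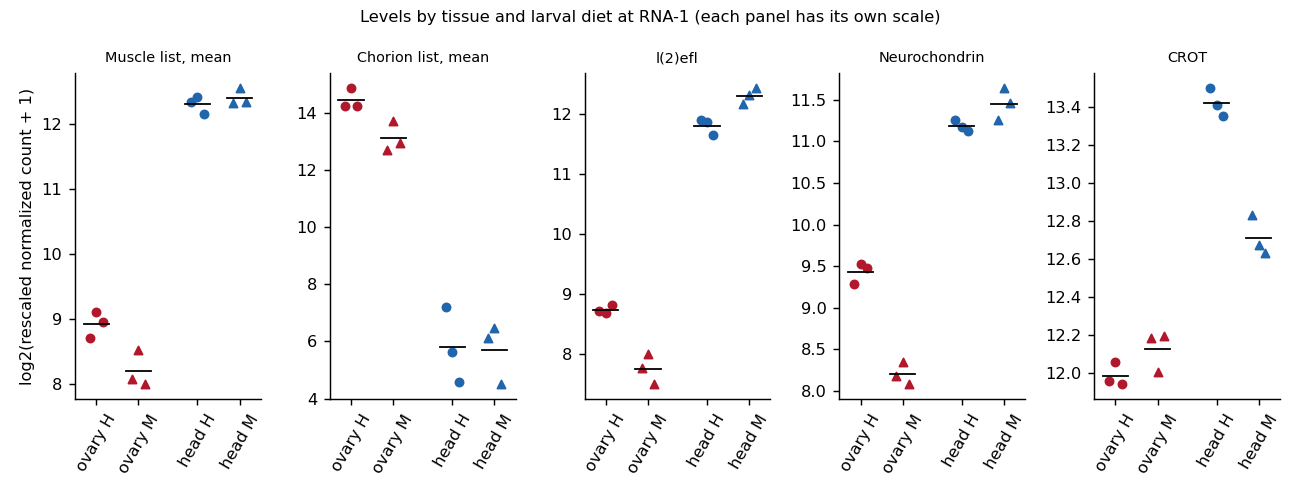
Levels by tissue and larval diet, as log2(rescaled normalized count + 1), for the mean of 28 muscle genes, the mean of 12 chorion genes, l(2)efl, Neurochondrin and CROT, with a point per library and a bar for the mean of 3 libraries. In the muscle, l(2)efl and Neurochondrin panels the 3 H ovaries lie above the 3 M ovaries, and in the CROT panel the 3 H heads lie above the 3 M heads.

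These counts of the diet comparison rested on single libraries. Leaving out 1 library at a time gave 18 to 853 genes higher and 1 to 1113 lower in H. The largest counts came without M head replicate 2. That left M heads only with libraries whose levels, relative to the mean of all head libraries, fell with transcript length. The correlations of this deviation with log2 length were -0.45 and -0.54, against 0.29 in replicate 2. With each library's trend on transcript length removed, 282 and 90 genes passed, and 15 of the muscle genes. Without those 2 M head libraries together, 6 and 1 genes remained past the threshold, and of muscle genes 2. With the replicate number as a block, the counts were 0 and 0, and 0 of the muscle genes, with 1189 genes at an unadjusted p under 0.05 by that limma fit, against 1993 without the block. Ovary H replicate 4 and head H replicate 3 had no partner of the same number in that fit. Its H difference thus rested on replicates 1 and 2. The block also left fewer residual degrees of freedom than the main fit, so its counts cannot show that the differences are absent.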

How the data were processed

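Values were taken from the 2 tables that the authors deposited, one for ovaries and one for heads, through the columns of the 12 RNA-1 libraries (ovary H replicates 1, 2 and 4, and replicates 1 to 3 of each other group). In making them the authors sequenced poly(A) mRNA with a stranded kit, and, per the labels and the study's methods, quantified reads against BDGP6 transcripts (kallisto 0.46.1) and normalized the counts in DESeq2 1.28.1 in R 4.0.1, separately for each tissue. The deposited values are thus normalized counts, a signal that is never negative and not whole reads. Whole reads could not be recovered, so no count model was run and raw depth is unknown. The rule by which the authors chose the genes to list was not found in the methods or labels. Columns of the authors' own comparisons (fold changes, p-values and calls between RNA-2 and RNA-1) were not used.

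Gene identifiers were given symbols from a reference annotation, which matched 12926 of 13013, and the tables were joined on them. Ovary values were divided by 1.54. Genes with at least 10 in at least 3 of the 12 libraries were tested with limma 3.58.1 (statmod 1.5.0, R 4.3.3) on log2(rescaled normalized count + 1), with a variance trend, robust variances and 8 residual degrees of freedom. The groups were the combinations of tissue and larval diet. The contrasts were the mean of the ovary groups minus that of the head groups, and this difference in H minus that in M females. P-values were adjusted by Benjamini-Hochberg over all genes tested, and every adjusted p printed is from this fit unless another is named. P-values measure the spread between these pools. The script was tested on simulated data.

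Gene lists were written from textbook knowledge. The members, lists and tests were chosen with earlier results of these data known. Named genes are the 12 largest differences on each side, up to 4 called members of each list and direction with a mean of at least 100, all members of the chorion, yolk, opsin, ribosomal protein copy and tubulin and actin lists, the 5 smallest adjusted p of the diet contrast on each side, the 10 highest named genes of one table only, and the cell type markers. Of the tested genes, 170 had values identical to another gene's in all 12 libraries. Same-numbered ovary and head libraries were not taken as pairs.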

Additional observations from a re-analysis of the deposited data

Results flagged for a closer look

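In 90 groups of 6 values screened, 7 held a library far from the others by Dixon's criterion, where chance gives about 1 in 20. The mean log2 level of the gut list was 5.83 in the ovary library of M replicate 3, against 3.84 to 4.41 in the other ovaries. In that library 4 genes were at 100 or more and at least 10 times every other ovary, among them the maltase genes Mal-A1 and Mal-A7. In the ovary library of M replicate 2, ocn was at 38.5, S-Lap8 at 31.9 and S-Lap4 at 30.8 normalized counts, and each was listed at 0 in the other 5. In the head library of H replicate 3, Diedel was at 33321.5, against 60.5 to 373, and Toll-4 at 7762, against 14.9 to 44.8. In the head library of H replicate 2, Sidpn was at 3275.8, against a median of 2731 over the 6 heads.

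The difference between ovaries and heads differed between H and M females, by the test of that difference in limma, for 73 genes upward and 6 downward. Those with the smallest adjusted p were Neurochondrin (log2 1.49), CG34325 (0.94), CG10126 (1.58), l(2)efl (1.49) and RhoL (1.42), higher in H, all with adjusted p = 0.00668, and CROT (-0.85), CG42586 and CG31775 (-2.22 each), CG15011 (-0.50) and MFS18 (-0.48), lower in H. None of them passed with the replicate number as a block, a fit with fewer residual degrees of freedom.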

How the results depend on the processing

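Scaling and filtering moved the counts of genes called. Higher in ovaries were 3910 genes without rescaling, 3979 after quantile normalization, 4253 with no minimum fold and 1142 at 4-fold, against 2605. Lower were 2571 among genes with a mean of at least 10 in both tissues, against 4179. Leaving out 1 library gave 2576 to 2636 higher and 4125 to 4185 lower. Of the 6784 called genes, 6214 were still called without rescaling and 5697 after quantile normalization, which changed the sign of 556.

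For the diet comparison the counts higher and lower in H were 73 and 6. Higher were 37 with libraries divided by totals, 20 after quantile normalization and 16 at an adjusted p under 0.01, and lower were 3 in limma without a variance trend and robust variances and 1 at an adjusted p under 0.01. Removing the trend on transcript length gave 282 and 90, and leaving out M head replicates 1 and 3 gave 6 and 1. Leaving out 1 library gave 18 to 853 and 1 to 1113. The causes were not tested.

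Same-numbered ovary and head libraries correlated in their deviations from group means at 0.03 and 0.05 (H) and 0.08, 0.17 and 0.20 (M). They were not taken as paired, although each correlated best with its own number. The replicate block gave 2621 genes higher and 4182 lower in ovaries, and 0 and 0 in the diet comparison, with fewer residual degrees of freedom than the main fit.

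Directions that changed among genes named with values were grk (0.11 without rescaling and 0.11 with libraries divided by totals), cona (2.55 after quantile normalization) and, at RNA-2, Act5C (-0.089), Obp19c (-1.62) and sad (-0.79). Normalized counts with no read depth limit what can be said of genes near 0.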
